A study of Mus musculus with 12 samples.

Results

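Very long genes of the brain, Rbfox1, Csmd1, Csmd3, Lrp1b, Macrod2, Ptprd, Magi2 and Auts2 (8 in all), were described by the H3K9me2 regions given to them in a ChIP-seq study of the mouse prefrontal cortex. A region was counted for a gene when the deposited table named that gene as overlapping it or, where it named none, as having the closest transcription start, with 1 region per set of coordinates. This gave 249 of the 33787 regions in the table comparing FAD with WT mice and 358 of the 43680 regions in the table comparing FAD-BIX with FAD mice, at 470 different coordinates in all. All 8 genes had regions in both tables. FAD-BIX mice carried familial Alzheimer's disease mutations and received BIX01294, a small molecule that inhibits EHMT1 and EHMT2, enzymes that methylate histones. Per the labels, FAD mice carried these mutations, with no BIX01294 named, and WT mice were wild type. The labels give the strain of all 3 groups as C57BL/6 and their age as 5 to 6 months. They give neither the mutated genes and the promoter of the FAD model nor the dose, timing and vehicle of BIX01294. Each group had 2 mice. For every mouse there was 1 library of immunoprecipitated chromatin (ChIP) and 1 of the sheared chromatin before immunoprecipitation (input). Because both tables hold the same FAD libraries, the comparisons are not independent.

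H3K9me2, the dimethylated form of a lysine of histone H3, is laid down mainly by EHMT1 and EHMT2 and is known as a mark of silent or weakly transcribed chromatin. It commonly forms broad, shallow domains rather than sharp peaks, and such domains often lie in long, late-replicating stretches of the genome at the nuclear lamina. Giant neuronal genes are transcribed over very large introns, and they encode synaptic, adhesion, endocytic and RNA-processing proteins. The values below are reads of a histone mark in bulk tissue and measure no transcript. In such tissue fewer cells with the mark and less mark per cell cannot be told apart.

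The ChIP libraries held 20.4 to 26.6 M reads and the inputs 13.9 to 23.8 M. The regions of a table took up 2.00% to 4.23% of the ChIP reads. A pair of libraries stood apart. FAD ChIP 2 alone called 60.3% of all regions of the FAD versus WT table and 44.9% of those of the FAD-BIX versus FAD table. Over the 3 regions given to Thy1 in the FAD-BIX versus FAD table, the inputs held 403 and 203 RPM, the reads per M reads of the library, in FAD-BIX, against 3.97 RPM in the library labelled FAD 1 and 366 RPM in FAD 2. Over the Thy1 region of the FAD versus WT table the inputs held 0.627 RPM in the library labelled FAD 1 and 24.1 RPM in FAD 2, against 0.0842 and 0.692 RPM in WT. The library labelled FAD 1 thus stood with WT and not with FAD 2 at this gene. Whether that mouse carried the mutations was not tested, and every FAD value with n = 2 includes it. The ChIP library labelled FAD 1 also held 76.5 RPM over regions of heart muscle genes, and FAD ChIP 2 held 27.3 RPM, against 14.4 and 11.7 RPM in the WT ChIP libraries. In the FAD-BIX versus FAD table such regions held 20.5 and 19.7 RPM in FAD-BIX, against 83.5 and 30.7 RPM in FAD. Results are therefore also given without each of the FAD libraries where that turned a direction or changed a call. Beyond that, the part of these libraries in the results was not tested.

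Rbfox1 encodes a neuronal RNA-binding protein that controls alternative splicing. It had 31 regions in the FAD versus WT table and 29 in the FAD-BIX versus FAD table, but only 7 and 5 of them overlapped the gene as the tables draw it. The tables place Rbfox1 at chr16:7069835-7412479 (GRCm38, plus strand), a length of 0.343 Mb, whereas RefSeq (GRCm38.p6) begins it at 5884793 and gives it 1.528 Mb. The RefSeq promoter table holds both starts, 1.185 Mb apart, and their sequences are shown because the choice of start decides which regions count as Rbfox1. Each covers 250 bases before and 50 bases after the start, written in the direction of transcription, with every CG dinucleotide in capitals. The promoter of Macrod2 is shown for contrast in CG content.
Rbfox1 upstream start, chr16:5884543-5884842, plus strand: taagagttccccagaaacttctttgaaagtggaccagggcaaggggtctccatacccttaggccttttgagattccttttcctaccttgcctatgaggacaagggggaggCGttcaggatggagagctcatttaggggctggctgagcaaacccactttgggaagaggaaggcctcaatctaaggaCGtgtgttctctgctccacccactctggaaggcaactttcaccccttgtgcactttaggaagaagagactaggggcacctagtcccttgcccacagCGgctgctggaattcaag
Rbfox1 downstream start, chr16:7069585-7069884, plus strand: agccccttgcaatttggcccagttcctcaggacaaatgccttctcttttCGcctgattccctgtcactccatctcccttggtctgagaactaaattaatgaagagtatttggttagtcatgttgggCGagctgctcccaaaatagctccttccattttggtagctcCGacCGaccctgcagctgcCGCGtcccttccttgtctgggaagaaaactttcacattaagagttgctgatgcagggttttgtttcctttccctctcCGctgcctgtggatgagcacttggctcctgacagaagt
Macrod2 first start, chr2:140395180-140395479, plus strand: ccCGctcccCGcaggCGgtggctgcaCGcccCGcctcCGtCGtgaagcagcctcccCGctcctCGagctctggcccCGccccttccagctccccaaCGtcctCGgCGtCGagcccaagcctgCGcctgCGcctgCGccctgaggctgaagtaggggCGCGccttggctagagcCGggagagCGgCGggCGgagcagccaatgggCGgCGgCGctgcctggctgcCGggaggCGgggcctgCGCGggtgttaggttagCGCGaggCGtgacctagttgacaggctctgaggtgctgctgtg
The upstream Rbfox1 window holds 3 CG dinucleotides, the downstream window 7 and the Macrod2 window 33. Of 32851 RefSeq promoter windows of the same length, 76.7% held at least 3, 52.1% at least 7 and 8.56% at least 33. No region of either table overlapped any of these windows. Windows and regions are both short, and the share of all 32851 windows that overlap a region is not given here. The lack of overlap at so few windows is therefore a description and does not set these promoters apart. The nearest region was 31218 bp from the upstream Rbfox1 window in both tables, 6739 bp from the downstream window in the FAD versus WT table and 53280 bp in the FAD-BIX versus FAD table. From the Macrod2 window it was 28820 bp away in the FAD versus WT table and 47294 bp away in the FAD-BIX versus FAD table. The promoter table had entries for 3 of the 8 genes, Rbfox1, Macrod2 and Magi2, and no region overlapped the Magi2 windows either.

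Most of the H3K9me2 regions of Rbfox1 lay between its starts, a stretch that makes up 1.185 of the 1.528 Mb of the RefSeq gene. Of the 31 regions of the FAD versus WT table, 17 lay between the upstream and the downstream start, 7 after the downstream start and 7 beyond the gene's end, where Rbfox1 was merely the closest start. In the FAD-BIX versus FAD table the counts were 19, 5 and 5 of 29. A further 16 and 20 regions between the starts were given no gene at all in the tables. Counting every region whose centre lay in the RefSeq gene gave 40 and 44 regions. Between the starts this came to 27.8 and 32.9 regions per Mb, against 20.4 and 14.6 per Mb after the downstream start. The values after the downstream start rest on 7 and 5 regions, and whether the stretches differ was not tested.

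Ptprd, a receptor-type protein tyrosine phosphatase that organises synapses from the presynaptic side, also had many regions that the tables gave to no gene. The rule found 3 and 8 regions in the tables, all in the last of 5 equal parts of the RefSeq gene. RefSeq places Ptprd at chr4:75941237-78211742 (minus strand), 2.271 Mb, and 54 and 77 regions were centred there, of which 51 and 69 were given no gene in the tables. Over all 8 genes 67 of the 297 regions centred in the RefSeq genes had no gene name in the FAD versus WT table, as had 89 of 422 in the FAD-BIX versus FAD table. All of these lay in Rbfox1 and Ptprd.

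**Figure D1:**
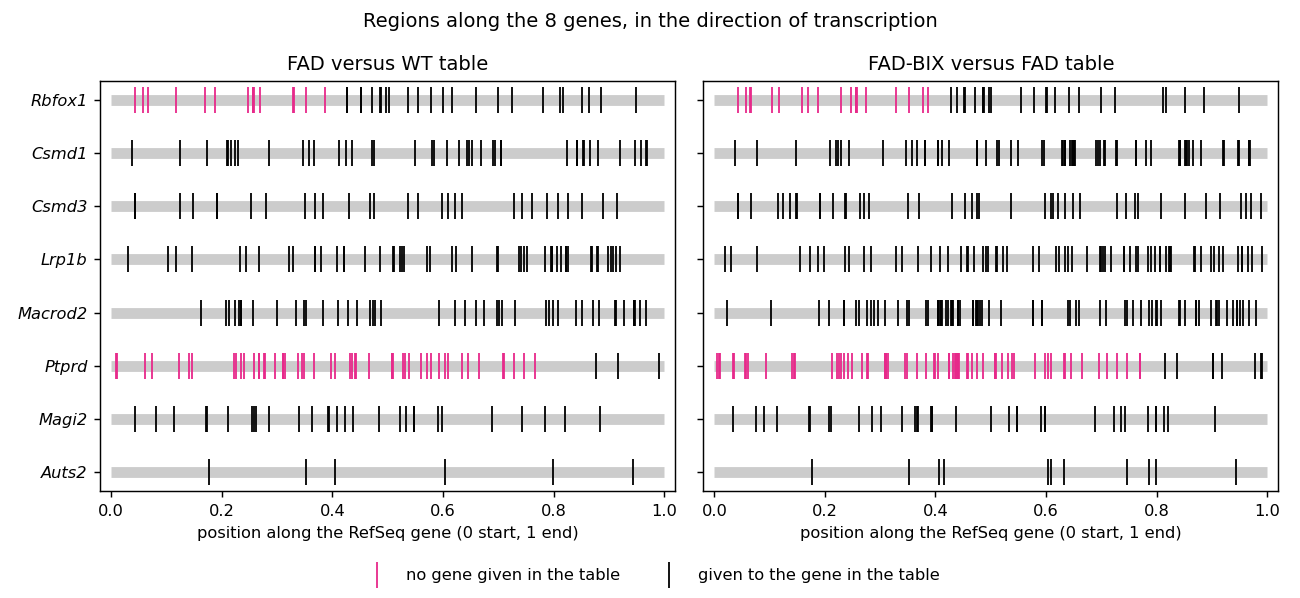
Centres of the regions along each of the 8 genes in the FAD versus WT table (left) and the FAD-BIX versus FAD table (right); the x axis is the position from the RefSeq start (0) to the RefSeq end (1) in the direction of transcription, black ticks are regions given to the gene in the table and pink ticks regions given to no gene. In Rbfox1 the pink ticks fill the 5' part of the gene, in Ptprd all but its 3' part, and the other 6 genes have black ticks only.

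Per Mb of gene, the rule put Rbfox1 far above and Ptprd far below the other genes, and both gaps closed over the RefSeq genes. By the rule, Rbfox1 had 90.5 regions per Mb in the FAD versus WT table (95% exact Poisson interval 61.5 to 128, which covers counting error only) and 84.6 (56.7 to 122) in the FAD-BIX versus FAD table. Ptprd had 1.32 (0.272 to 3.86) and 3.52 (1.52 to 6.94). Over the RefSeq gene Rbfox1 had 26.2 (18.7 to 35.7) and 28.8 (20.9 to 38.7) regions per Mb, and Ptprd had 23.8 (17.9 to 31.0) and 33.9 (26.8 to 42.4). These intervals overlap each other and those of Csmd1, Csmd3, Lrp1b and Macrod2. The tables give no start and end for Macrod2, Ptprd and Auts2, so the RefSeq length was used for these 3 genes throughout. For Ptprd, the region labelled intron 1 lay at 0.815 of the RefSeq length, so the labels follow a shorter gene. Its density by the rule thus divides regions of that shorter gene by the full RefSeq length.

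Csmd1 and Csmd3 encode large transmembrane proteins with CUB and sushi domains, of which Csmd1 is known to restrain complement. By the rule Csmd1 had 54 regions, or 32.9 per Mb, in the FAD versus WT table and 81, or 49.3 per Mb, in the FAD-BIX versus FAD table, of which 11 and 17 lay outside the gene. Within the RefSeq gene it had 26.2 and 39.0 per Mb. Csmd3 had 30 and 45 regions, with 23.9 and 35.5 per Mb in the RefSeq gene. Lrp1b, an endocytic receptor of the LDL receptor family, had 51 and 70 regions and 24.8 and 33.5 per Mb. Macrod2, which encodes a macrodomain enzyme that removes ADP-ribose from proteins, had 45 and 78 regions and 22.5 and 39.0 per Mb. Magi2, a synaptic scaffold with PDZ and WW domains, had 29 and 36 regions and 19.5 and 24.2 per Mb.

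Auts2, which encodes a nuclear regulator of neuronal gene activity tied to a Polycomb complex, was the sparsest of the 8 over the RefSeq genes. It had 6 and 11 regions over 1.106 Mb, or 5.43 (1.99 to 11.8) and 9.95 (4.97 to 17.8) per Mb, below the interval of each of the other 7 genes in the FAD versus WT table. In the FAD-BIX versus FAD table its interval overlapped that of Magi2 (17.0 to 33.6) and lay below those of the other 6 genes. Among 219 other protein-coding RefSeq genes of at least 500 kb, the median was 15.1 and 22.7 regions per Mb, with 25th to 75th percentiles of 8.20 to 25.5 and 10.5 to 33.9. The 219 were not matched to the 8 by chromosome. Some of them held few or no regions, such as Dmd (1.26 and 3.77 per Mb) and Fgf13 (0 and 0). Auts2 stood above 35 and 48 of these 219 genes, Magi2 above 60.3% and 52.1%, and the other 6 above 70.3% to 76.3% in the FAD versus WT table and 67.1% to 83.1% in the FAD-BIX versus FAD table. Of the 219, 53 belong to a list of other giant brain genes and had a median of 22.0 and 26.9 per Mb.

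**Figure D2:**
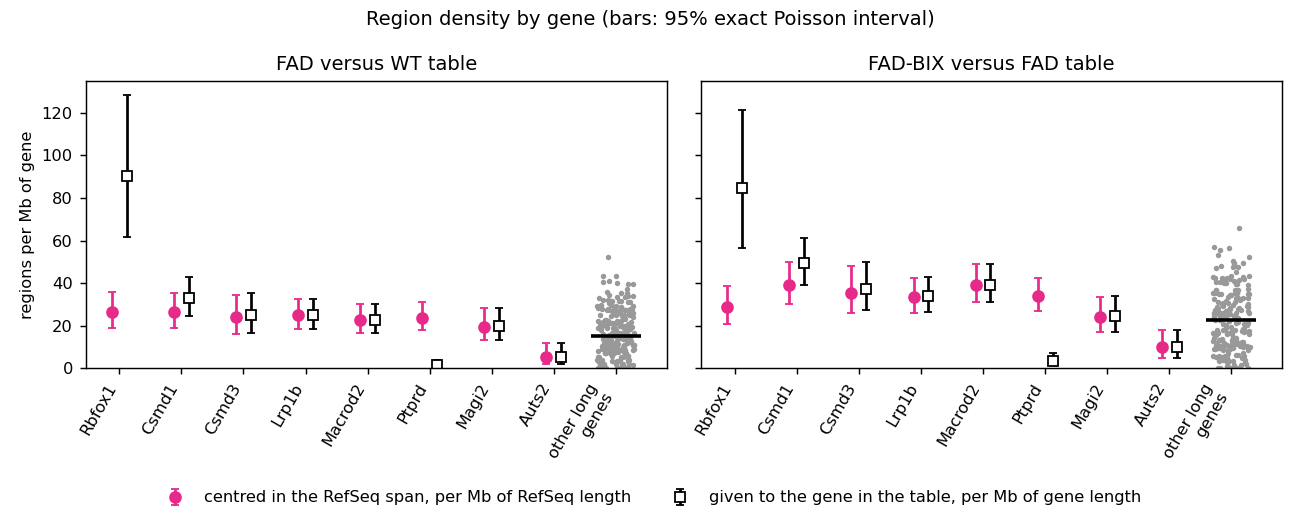
Regions per Mb for each gene in the FAD versus WT table (left) and the FAD-BIX versus FAD table (right), with 95% exact Poisson intervals; pink circles count regions centred in the RefSeq gene, open squares regions given to the gene by the table, and grey points are the 219 other genes of at least 500 kb with their median as a line. The squares of Rbfox1 (90.5 and 84.6) and Ptprd (1.32 and 3.52) stand apart, while their circles lie among those of the other genes and Auts2 is lowest.

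The regions were narrow and intronic. Median widths were 313 bp in the FAD versus WT table and 324.5 bp in the FAD-BIX versus FAD table, against 329 and 325 bp for all regions. The tables placed in introns 212 of the 249 regions (85.1%) and 313 of the 358 (87.4%), beside 21.0% and 21.3% of all regions of the tables. The genes were chosen for their length, and every region counted here had a gene name. Of all regions, 71.8% and 71.5% were placed in no gene, and 3.51% in both tables were in last introns, which are labelled apart. The share in introns is therefore a description. A lone region, in the part labelled exon 11 of Ptprd (chr4:76128551-76128902), was placed in an exon. The remaining 36 and 44 regions were given to Rbfox1, Csmd1, Csmd3 or Lrp1b by the closest start alone. Introns 5 and 8 of Macrod2 held 11 and 9 of its 45 regions in the FAD versus WT table, and 28 and 15 of its 78 in the FAD-BIX versus FAD table. In Magi2, introns 1 and 2 held 10 and 12 of 29 regions, and 11 and 12 of 36.

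Along the direction of transcription the genes differed in where their regions lay. With each RefSeq gene divided into 5 equal parts from start to end, Lrp1b held 4, 8, 12, 13 and 14 regions in the FAD versus WT table and 7, 8, 15, 19 and 20 in the FAD-BIX versus FAD table. Csmd1 held 3, 9, 8, 10 and 13, and 3, 11, 13, 20 and 17. Macrod2 held 1, 12, 8, 11 and 13, and 3, 15, 27, 13 and 20. In these 3 genes the part nearest the start was therefore the emptiest. Magi2 leaned the other way, with 5, 9, 10, 3 and 2, and 6, 12, 8, 7 and 3. Csmd3 was close to even, with 6, 5, 6, 7 and 5, and 10, 8, 7, 10 and 8. Ptprd, with its unnamed regions counted, was fullest before and at its middle, with 7, 18, 16, 10 and 3, and 12, 21, 24, 12 and 8. Rbfox1 held 6, 10, 12, 6 and 6, and 9, 11, 12, 7 and 5. Many regions were listed in both tables, so the tables do not give independent counts.

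Few regions of these genes were called in more than 1 library. In the FAD versus WT table, 29 and 128 of the 249 regions were called in FAD ChIP 1 and 2, against 64 and 39 in WT ChIP 1 and 2. As shares these were 11.6% and 51.4% in FAD and 25.7% and 15.7% in WT, while over all regions of the table they were 11.6% and 64.7% in FAD and 17.4% and 12.2% in WT. FAD ChIP 2 alone called 49.4% of the regions of the 8 genes, all 6 regions of Auts2 among them, but 7 of 31 in Rbfox1. Only 11 regions (4.42%) were called in 2 libraries and none in more, against 5.12% of all regions called in 2 or more. Of these 11, 2 were called in both FAD libraries, 3 in both WT libraries and 6 in 1 library of each group.

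In the FAD-BIX versus FAD table, 116 and 110 of the 358 regions were called in FAD-BIX ChIP 1 and 2, against 29 and 127 in FAD ChIP 1 and 2. The shares were 32.4% and 30.7% in FAD-BIX, against 8.10% and 35.5% in FAD, while over all regions they were 22.3% and 26.0% in FAD-BIX, against 8.94% and 50.2% in FAD. Macrod2 had 30 and 32 calls in FAD-BIX, against 2 and 20 in FAD. Rbfox1 had 6 and 7 calls in FAD-BIX, against 9 and 9 in FAD. Calls in 2 libraries were made for 24 regions (6.70%), against 6.59% of all regions in 2 or more. Both FAD-BIX libraries shared 6 of them, both FAD libraries 2, and the other 16 had 1 call in each group. Whether a library has a call depends on its own reads in the region, so these shares are no measure of the mark apart from the reads described next.

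FAD was compared with WT to ask how the mark differs between mice with and without the mutations. Summed over the 31 regions of Rbfox1, FAD ChIP libraries held 514 and 411 reads, against 386 and 425 in WT. Scaled to the library total and the summed length of the regions, these were 1.84 and 1.77 RPM per kb in FAD, against 1.41 and 1.43 RPM per kb in WT, so both FAD libraries stood above both WT libraries. The inputs held 68 and 80 reads in FAD, against 155 and 83 in WT, or 0.42 and 0.47 RPM per kb in FAD, against 0.58 and 0.43 in WT. Over the RefSeq gene the ChIP values were 1.59 and 2.12 RPM per kb in FAD, against 1.34 and 1.36 in WT. Over all regions of the table the ChIP libraries held 1.70 and 2.92 RPM per kb in FAD, against 1.58 and 1.70 in WT. After TMM scaling, which centres the bulk of the genes on a fold of no change, the log2 fold of Rbfox1 was -0.11 ± 0.31 (SE, n = 2 mice per group).

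Among the transmembrane and endocytic genes, Csmd1 held 605 and 940 ChIP reads in FAD, against 593 and 666 in WT. Csmd3 held 455 and 569 in FAD, against 395 and 462 in WT, or 1.64 and 2.46 RPM per kb in FAD, against 1.45 and 1.57 in WT. Lrp1b held 635 and 879 in FAD, against 716 and 761 in WT. In Csmd3 the groups did not overlap in RPM, while in Csmd1 and Lrp1b the library labelled FAD 1 lay between or below the WT values and FAD ChIP 2 above them. The inputs of these 3 genes lay between 0.45 and 0.64 RPM per kb in FAD and between 0.44 and 0.60 in WT.

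The ADP-ribose hydrolase gene Macrod2 held 524 and 699 ChIP reads in FAD, against 678 and 641 in WT, or 1.32 and 2.11 RPM per kb in FAD, against 1.74 and 1.51 in WT. The library labelled FAD 1 was thus the lowest of the 4 and FAD ChIP 2 the highest. Among the synaptic genes, Magi2 held 380 and 493 reads in FAD, against 391 and 378 in WT, and Ptprd, from its 3 named regions, held 26 and 56 in FAD, against 32 and 31 in WT. Over the whole RefSeq gene Ptprd held 664 and 1009 reads in FAD, against 711 and 788 in WT. The regulator Auts2 held 72 and 132 reads in FAD, against 53 and 54 in WT, or 1.28 and 2.81 RPM per kb in FAD, against 0.959 and 0.901 in WT. In WT mouse 2 the Auts2 input held 0.895 RPM per kb, close to the ChIP library of the same mouse. Over all 8 genes the log2 ratio of ChIP to input was 1.45 and 2.33 in FAD, against 1.40 and 1.50 in WT, while over all regions it was 1.34 and 2.25 in FAD, against 1.09 and 1.00 in WT.

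**Figure D3:**
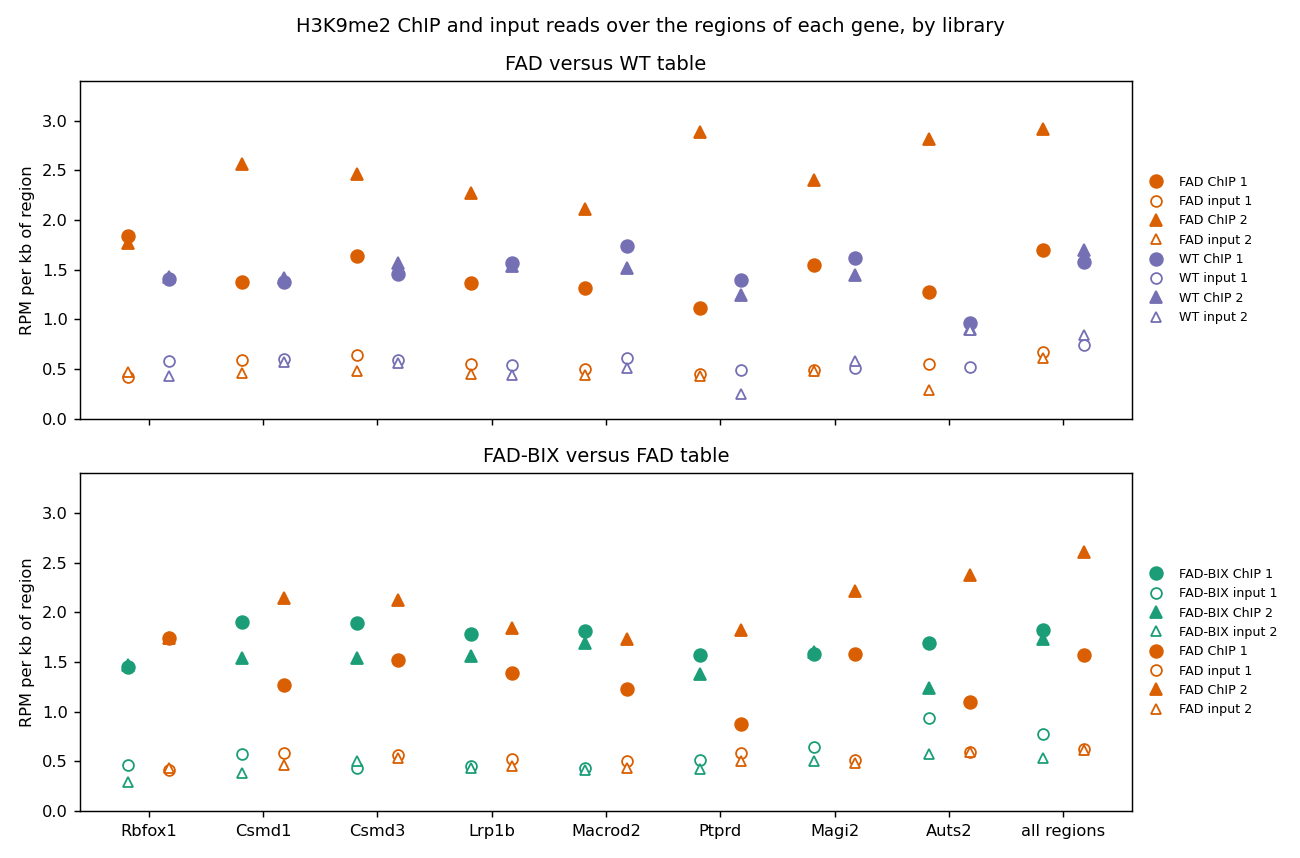
Reads per M library reads and per kb (RPM per kb) summed over the regions of each gene, and over all regions, in every ChIP (filled) and input (open) library of the FAD versus WT table (top) and the FAD-BIX versus FAD table (bottom); circles are mouse 1 and triangles mouse 2. All ChIP values of the 8 genes lie above the input values of the same mouse, by the least in WT mouse 2 at Auts2 (0.901 and 0.895). FAD ChIP 2 is the highest ChIP library except at Rbfox1 in both panels and at Macrod2 in the lower one.

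No gene passed the test of FAD against WT. In edgeR's quasi-likelihood test, 0 of 3757 genes (0%) had an adjusted p under 0.05, while 50 stood higher and 123 stood lower with an unadjusted p under 0.05 (1.33% and 3.27%), and DESeq2 called 1 gene that is none of the 8. At that unadjusted p, library totals gave 87 higher and 9 lower genes, leaving out the library labelled FAD 1 gave 17 and 301, and leaving out FAD ChIP 2 gave 102 and 72. None of the 8 had an unadjusted p under 0.05 with all libraries, under TMM or library totals. Their median log2 fold was -0.36 without the library labelled FAD 1 and -0.07 without FAD ChIP 2. Of the 8, 3 lay above WT in both FAD mice in RPM (Rbfox1, Csmd3 and Auts2) and none below, beside 33.4% above and 3.46% below over all genes tested. The log2 folds were -0.11 ± 0.22 in Csmd1, -0.11 ± 0.24 in Csmd3, -0.35 ± 0.22 in Lrp1b, -0.49 ± 0.23 in Macrod2, -0.07 ± 0.39 in Ptprd, -0.20 ± 0.24 in Magi2 and 0.50 ± 0.29 in Auts2. Adjusted p lay between 0.929 and 0.985 for all 8.

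These signs hang on the scaling. TMM gave 7 negative folds of 8, with a median of -0.11 beside 0.00 over all genes, whereas library totals as scaling gave 8 positive folds of 8 and moved the median of all genes to 0.61. Relative to that median, 7 of the 8 lay below it and Auts2 above it under both scalings. All 6 regions of Auts2 were called in FAD ChIP 2 alone. Without FAD ChIP 2, 3 of the 8 lay above the median of all genes and 5 below. Without the regions called in FAD ChIP 2 alone, 3 of the 7 genes left lay above and 4 below. Without the library labelled FAD 1 the fold of Rbfox1 was -0.73 ± 0.31, and without FAD ChIP 2 it was 0.31 ± 0.30. Adjusted p for Rbfox1 was 0.497 and 0.999 in these fits.

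At the level of regions, 194 of the 249 passed the filter on low counts and none passed the test (0 of 27778 tested, 0%). At an unadjusted p under 0.05, 2 of the 194 were higher and 17 lower in FAD, beside 0.918% higher and 4.97% lower over all tested regions. Over all regions the numbers were 255 higher and 1381 lower with TMM, but 641 higher and 69 lower with library totals, under which 3 of the 194 were higher and 0 lower. Without the library labelled FAD 1, 0 were higher and 38 lower of 239 tested (median log2 fold -0.40), and without FAD ChIP 2, 4 were higher and 4 lower of 229 (median -0.23). With all libraries their median log2 fold was -0.12, beside 0.01 over all tested regions. In RPM, 50 of the 194 lay above WT in both FAD mice and 22 below, beside 30.6% and 6.41% over all tested regions. Macrod2 held 1 of the higher and 7 of the lower regions among its 37 tested, with a median of -0.50. Without the library labelled FAD 1 these were 0 higher and 13 lower of 45 (median -1.08), and without FAD ChIP 2 they were 0 and 2 of 42 (median -0.68).

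In FAD against WT, 2 of the 3 regions with the smallest p and higher counts, and all 3 with lower counts, lay in Macrod2. Counts of a region in Macrod2 intron 4 (chr2:140908135-140908472) were 5 and 10 in FAD, against 18 and 27 in WT, a log2 fold of -2.01 ± 0.55, and this region was called in both WT libraries and in neither FAD library. In intron 3 (chr2:140720388-140720665) they were 2 and 6 in FAD, against 12 and 27 in WT, a log2 fold of -2.69 ± 0.73, and in intron 7 (chr2:141805531-141805843) 9 and 12 in FAD, against 19 and 27 in WT. With higher counts, intron 6 (chr2:141671495-141671837) held 17 and 30 reads in FAD, against 7 and 3 in WT, a log2 fold of 1.74 ± 0.68, and intron 8 (chr2:141992272-141992638) held 11 and 30 in FAD, against 3 and 7 in WT. Regions of Macrod2 thus stood on both sides, each side being picked by smallest p. The remaining region lay upstream of Csmd3, at -27123 bp from its start (chr15:48818729-48819495), with 38 and 39 reads in FAD, against 12 and 15 in WT, a log2 fold of 1.13 ± 0.47. It was called in both FAD libraries. Its inputs held 2 and 2 reads in FAD, against 8 and 6 in WT. Adjusted p was 0.832 to 0.854 for these 6 regions. Each of the 6 was called only in libraries of the group with the higher counts. The calls are therefore no separate measure, and the directions are a description of picked regions.

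The region with the highest mean RPM of each gene was called in at most 1 library of each group in the FAD versus WT table. In Magi2 intron 2 (chr5:19757290-19757624) it held 72 and 37 reads in FAD, against 45 and 46 in WT, with 0 and 0 input reads in FAD, against 3 and 1 in WT. In Rbfox1, between the starts (chr16:6627287-6628127), it held 34 and 43 reads in FAD, against 29 and 41 in WT. In Csmd3 intron 10 (chr15:48217015-48217630) it held 38 and 42 in FAD, against 33 and 31 in WT, and in Macrod2 intron 5 (chr2:141342236-141342963) 52 and 19 in FAD, against 24 and 40 in WT. Lrp1b intron 3 (chr2:41893209-41893861) held 37 and 36 in FAD, against 20 and 18 in WT, with a log2 fold of 0.56 ± 0.47. Csmd1 intron 7 (chr8:16396124-16396518) held 25 and 33 in FAD, against 20 and 12 in WT, Auts2 intron 2 (chr5:132153352-132153850) 16 and 30 in FAD, against 10 and 16 in WT, and the Ptprd exon region named above 6 and 26 in FAD, against 10 and 13 in WT. The log2 folds of these 8 regions lay between -0.26 and 0.56, and none passed the test.

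FAD-BIX was compared with FAD to ask what the EHMT1/2 inhibitor changes in the disease model. Rbfox1 held 347 and 380 ChIP reads in FAD-BIX, against 511 and 426 in FAD, over its 29 regions. These were 1.45 and 1.47 RPM per kb in FAD-BIX, against 1.74 and 1.74 in FAD, so that both FAD-BIX libraries lay below both FAD libraries. Its inputs held 80 and 47 reads in FAD-BIX, against 69 and 77 in FAD. Macrod2 held 1039 and 1044 reads in FAD-BIX, against 861 and 1011 in FAD, or 1.81 and 1.69 RPM per kb in FAD-BIX, against 1.23 and 1.73 in FAD. Both FAD-BIX values were thus above the library labelled FAD 1 and close to FAD ChIP 2.

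Among the other genes the library labelled FAD 1 was usually lowest and FAD ChIP 2 highest, with the FAD-BIX libraries between them. Csmd1 held 1.90 and 1.54 RPM per kb in FAD-BIX, against 1.27 and 2.15 in FAD (1076 and 934 reads in FAD-BIX, 874 and 1234 in FAD). Csmd3 held 1.89 and 1.54 RPM per kb in FAD-BIX, against 1.52 and 2.12 in FAD, and Lrp1b 1.78 and 1.56 in FAD-BIX, against 1.39 and 1.85 in FAD. Ptprd held 81 and 77 reads in FAD-BIX, against 55 and 96 in FAD, and Auts2 131 and 103 in FAD-BIX, against 104 and 187 in FAD. Magi2 held 1.58 and 1.60 RPM per kb in FAD-BIX, against 1.58 and 2.21 in FAD. Over the 8 genes the log2 ratio of ChIP to input was 1.81 and 1.88 in FAD-BIX, against 1.38 and 2.07 in FAD. Over all regions of the table the ChIP libraries held 1.82 and 1.73 RPM per kb in FAD-BIX, against 1.57 and 2.61 in FAD.

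No gene passed the test of FAD-BIX against FAD either. Of 4052 genes 0 (0%) had an adjusted p under 0.05 in edgeR's quasi-likelihood test and 0 in DESeq2, while in edgeR 118 stood higher and 74 stood lower with an unadjusted p under 0.05 (2.91% and 1.83%). At that unadjusted p, library totals gave 6 higher and 46 lower genes, leaving out the library labelled FAD 1 gave 220 and 30, and leaving out FAD ChIP 2 gave 35 and 85. Of the 8, Rbfox1 lay below FAD in both FAD-BIX mice in RPM and none lay above, beside 19.3% below and 6.89% above over all genes tested. Macrod2 had a log2 fold of 0.50 ± 0.20, with an unadjusted p of 0.0222 and an adjusted p of 0.874. The other log2 folds were -0.07 ± 0.24 in Rbfox1, 0.30 ± 0.20 in Csmd1, 0.17 ± 0.21 in Csmd3, 0.29 ± 0.21 in Lrp1b, 0.46 ± 0.29 in Ptprd, -0.00 ± 0.21 in Magi2 and 0.09 ± 0.26 in Auts2. Macrod2 passed only without the library labelled FAD 1, a fit with 1 FAD library, with a log2 fold of 0.68 ± 0.16. Its regions had 30 and 32 calls in FAD-BIX, against 2 and 20 in FAD. Whether this choice of regions raised the fold was not tested. Its adjusted p was at least 0.679 in each of the other settings and reached 1.00. Without FAD ChIP 2 its fold was 0.32 ± 0.17.

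The median fold of the 8 genes was 0.23, beside -0.00 over all genes, with 6 positive under TMM and 4 positive with library totals, which moved the median of all genes to -0.30. Relative to those medians 7 of the 8 lay above under TMM and 8 with library totals. Rbfox1 turned with the FAD library left out, to 0.41 ± 0.22 without the library labelled FAD 1 and -0.45 ± 0.21 without FAD ChIP 2. From its 5 overlapping regions alone it was -0.59 ± 0.39. Both comparisons use the same FAD libraries, so a fold that is negative in FAD against WT and positive in FAD-BIX against FAD, as in Macrod2 (-0.49 and 0.50), does not rest on separate FAD mice.

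**Figure D4:**
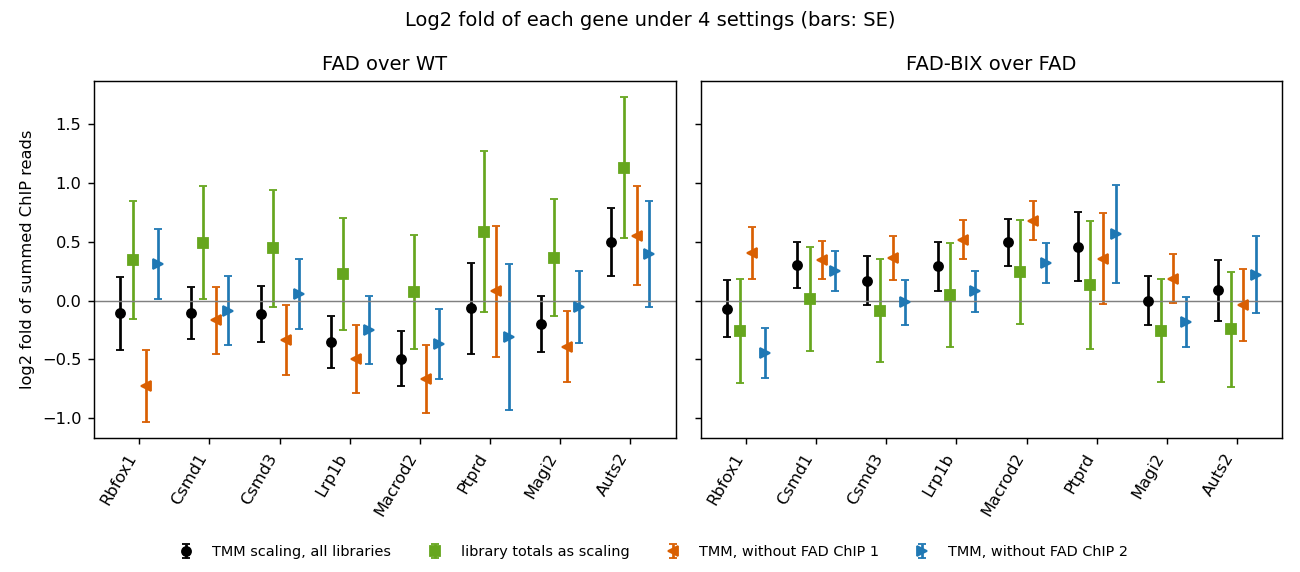
Log2 fold of summed ChIP reads, with SE, of each gene in FAD over WT (left) and FAD-BIX over FAD (right) under 4 settings, TMM scaling with all libraries, library totals as scaling, TMM without FAD ChIP 1 and TMM without FAD ChIP 2. In FAD over WT all 8 genes lie above 0 with library totals and 7 below 0 with TMM, and Rbfox1 changes sign with the FAD library left out in both panels.

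Of the 358 regions, 248 passed the filter on low counts in the FAD-BIX versus FAD table and none passed the test (0 of 31055, 0%). At an unadjusted p under 0.05, 10 of the 248 were higher and 2 lower in FAD-BIX, beside 3.93% higher and 1.18% lower over all tested regions, which is 1221 and 365 regions. With library totals the whole gave 137 higher and 456 lower, and the 248 gave 1 higher and 2 lower. Without the library labelled FAD 1 the split was 24 higher and 0 lower of 347 tested, and without FAD ChIP 2 it was 0 higher and 4 lower of 335. The median log2 fold of the 248 was 0.30, beside 0.03 over all tested regions. In RPM, 37 of the 248 lay above FAD in both FAD-BIX mice and 35 below, beside 11.1% and 21.3%. Csmd1 held 5 of the 10 higher regions among its 63 tested, but 0 of 74 without FAD ChIP 2, and the 47 tested regions of Macrod2 had a median of 0.41, which was 1.11 without the library labelled FAD 1 and 0.47 without FAD ChIP 2.

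Of the 3 regions with the smallest p and higher counts in FAD-BIX, 2 belonged to Csmd1. Upstream of Csmd1 (chr8:17814685-17815210), 17 and 34 reads stood in FAD-BIX against 15 and 4 in FAD, a log2 fold of 1.73 ± 0.67. In its intron 2 (chr8:17034567-17034876) 20 and 12 reads stood in FAD-BIX against 3 and 7 in FAD. In Magi2 intron 2 (chr5:19803898-19804435) the counts were 12 and 26 in FAD-BIX, against 9 and 6 in FAD. The regions with lower counts were in Rbfox1 and Csmd3. Between the Rbfox1 starts (chr16:6574929-6575627) 14 and 6 reads stood in FAD-BIX against 26 and 43 in FAD, a log2 fold of -1.33 ± 0.56, and its inputs held 14 and 2 reads in FAD-BIX, against 9 and 5 in FAD. In Rbfox1 intron 1 (chr16:7184236-7184764) the counts were 10 and 8 in FAD-BIX, against 19 and 32 in FAD, and in Csmd3 intron 24 (chr15:47891026-47891450) 7 and 10 in FAD-BIX, against 25 and 32 in FAD. Adjusted p was 0.897 for all 6. Each was called in 1 library alone, of the group with the higher counts, so the calls are no separate measure.

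The strongest Rbfox1 region of the FAD-BIX versus FAD table also lay between its starts. At chr16:6537166-6537936 it held 32 and 35 reads in FAD-BIX, against 22 and 22 in FAD, a log2 fold of 1.00 ± 0.46 with an adjusted p of 0.897. It was called in both FAD-BIX libraries alone, so it was listed through the group where it held more reads. An Rbfox1 region of the FAD versus WT table that overlaps its edge (chr16:6536688-6537187) held 19 and 0 reads in FAD, against 12 and 30 in WT. Its adjusted p was 0.933 with all libraries and 0.00772 without the library labelled FAD 1, with a range of 0.00772 to 1.00 over 11 settings. A region of Csmd1 intron 6 (chr8:16499331-16499897) held 20 and 31 reads in FAD-BIX, against 19 and 0 in FAD. It too passed without the library labelled FAD 1 alone, with an adjusted p of 0.00584, against 0.897 with all libraries and a range of 0.00584 to 1.00 over 11 settings. In both cases the FAD group of that fit was 1 library, with 0 reads in the region, and both regions were chosen after these values were seen.

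Of the strongest regions of the other genes, that of Csmd3 intron 3 (chr15:48561247-48562042) held 41 and 41 reads in FAD-BIX, against 33 and 33 in FAD. That region was likewise listed through calls in the FAD-BIX libraries alone. Macrod2 intron 8 (chr2:141975163-141975827) held 33 and 23 in FAD-BIX, against 27 and 53 in FAD, and Lrp1b intron 32 (chr2:41218141-41219031) 35 and 14 in FAD-BIX, against 20 and 47 in FAD. The Magi2 intron 2 region named above held 28 and 26 in FAD-BIX, against 72 and 37 in FAD, a log2 fold of -0.69 ± 0.49. Upstream of Csmd1 (chr8:17741815-17742346) the counts were 23 and 18 in FAD-BIX, against 18 and 36 in FAD. In the part labelled intron 1 of Ptprd (chr4:76360392-76360830) they were 25 and 12 in FAD-BIX, against 12 and 15 in FAD. In the Auts2 intron 2 region named above they were 11 and 16 in FAD-BIX, against 16 and 30 in FAD. None passed the test.

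Values for all 3 groups exist for the 153 regions that matched between the tables at 50% reciprocal overlap, 61.4% of the 249 and 42.7% of the 358. Of these, 149 were called in a FAD library, 119 of them in FAD ChIP 2 alone, so that they were largely chosen by that library. They held 1.46 and 1.25 RPM per kb in FAD-BIX, 1.59 and 2.85 in FAD, against 1.23 and 1.31 in WT. The FAD-BIX and WT values differed little beside the gap between the FAD libraries. In Rbfox1, with 18 such regions, the levels were 1.26 and 1.16 RPM per kb in FAD-BIX, 1.96 and 2.22 in FAD, against 1.17 and 1.18 in WT. Of these 18, 17 were called in a FAD library, 7 of them in FAD ChIP 2 alone. The regions were thus chosen largely through the FAD libraries, and the higher FAD levels over them are no separate measure. In Macrod2, with 24, they were 1.56 and 1.54 in FAD-BIX, 1.52 and 2.98 in FAD, against 1.42 and 1.33 in WT. The Csmd3 region at -27123 bp held 21 and 20 reads in FAD-BIX, 38 and 39 in FAD, against 12 and 15 in WT, and was called in the FAD libraries alone.

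A list of 55 other giant brain genes is given beside the 8. In FAD against WT 50 were tested, none had an unadjusted p under 0.05, and 6 folds were positive and 44 negative, with a median log2 fold of -0.17 under TMM. With library totals 49 were positive and 1 negative (median 0.41), and without FAD ChIP 2, 16 of 51 were positive and 35 negative (median -0.09). Without the library labelled FAD 1, 8 of 51 were positive and 43 negative (median -0.31). In FAD-BIX against FAD 51 were tested, with 45 positive and 6 negative folds and a median of 0.20 under TMM. With library totals 22 were positive and 29 negative (median -0.05), and without FAD ChIP 2, 32 of 52 were positive and 20 negative (median 0.09). Without the library labelled FAD 1, 46 of 52 were positive and 6 negative (median 0.32). The signs of this list thus turned with the scaling in both comparisons, but its place beside the median of all genes did not. In FAD against WT, 44 of 50 lay below that median under TMM and 42 with library totals, but 30 of 51 without FAD ChIP 2. In FAD-BIX against FAD, 45 of 51 lay above it under TMM and 47 with library totals, but 29 of 52 without FAD ChIP 2. At an unadjusted p under 0.05, Pcdh9, a protocadherin (0.65 ± 0.22), and Ctnna2, the neuronal alpha-catenin (0.45 ± 0.21), were higher in FAD-BIX and Nrg1, a growth factor of the neuregulin family (-0.53 ± 0.25), was lower. The adjusted p of each was 0.874. The genes with the smallest p in FAD against WT were Il1rapl2 (1.00 ± 0.63) and Tenm3 (0.48 ± 0.36) among positive folds, and Exoc4 (-0.65 ± 0.33) and Erbb4 (-0.40 ± 0.24) among negative ones. Of 12 paralogues of the 8 genes, only Csmd2, Lrp2, Magi1 and Magi3 had regions, and 0 of these 4 had an unadjusted p under 0.05 in either comparison.

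Cell-type lists were thinly covered, since few of their genes carry regions. Of 10 neuron markers 4 were tested, with medians of 0.30 in FAD against WT and 0.17 in FAD-BIX against FAD, of 7 astrocyte markers 1, of 8 oligodendrocyte markers 1, of 6 endothelial markers 4 and 2, and of 7 microglia markers 0. Regions of heart muscle genes held most reads in the ChIP library labelled FAD 1. In FAD against WT, 3 of the 5 tested were higher with an unadjusted p under 0.05 (median 1.25, Actc1 3.20 ± 0.94 and Myh6 2.79 ± 0.92), and in FAD-BIX against FAD, 3 of 5 were lower (median -1.95). Their part in the values of the 8 genes was not tested.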

How the data were processed

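ChIP and input libraries were read through the authors' 2 deposited tables of regions. Reads were handled with FastQC, Trimmomatic, BWA 0.7.12 and MACS2 2.1.0, per the submitters' processing notes, and the regions carry marks of the libraries they were called in, per the file headers. Count values, as deposited, are reads per region with no normalization. The deposited RPM columns equalled the count plus 1 times a constant per library (largest relative deviation 4.75e-06), which gave the library totals. The authors' fold enrichment is the ratio of ChIP to input RPM, and their log2 fold change, p-value and q-value columns, as deposited, were not used for any result. The notes name mm9, but the gene positions in the tables overlapped RefSeq GRCm38.p6 for 99.8% of genes, so coordinates are given as GRCm38. Whether the first base counts from 0 or 1, and which libraries were read as 50 bp single or 150 bp paired reads, was not given in the sources used here.

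Repeated coordinates were merged. Counts, per region and summed per gene, went into edgeR 4.0.16 under R 4.3.3 (TMM scaling, filterByExpr, quasi-likelihood F test, Benjamini-Hochberg adjustment over all features, threshold 0.05), each comparison in its own table with ChIP libraries only. The SE is the size of the log2 fold divided by the square root of F. An exact permutation test of 2 mice against 2 cannot go below a two-sided p of 0.333, so none was run. Alternatives used DESeq2 1.42.0, limma 3.58.1 on ChIP over input and other scalings and filters, and the fits were tested on simulated data. Regions were also assigned by centre to RefSeq genes, an alternative added after seeing the data. Levels are the reads summed over a gene's regions per M (RPM) library reads and per kb of summed region width. The log2 ratios of ChIP to input use sums with a count of 1 added. The 8 genes and all lists were chosen with earlier results of these data known. Named regions are the region with the highest mean ChIP RPM of each gene and, over all 8, the 3 of smallest p on each side, and named list genes are the 2 of smallest p on each side. Mice are separate samples per the labels, and library preparation days were not given in the sources used here.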

Additional observations from a re-analysis of the deposited data

How the results depend on the processing

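None of the 8 genes or their regions passed the adjusted threshold in any alternative, except Macrod2 (genes) and a region each of Rbfox1 and Csmd1, all without the library labelled FAD 1. Over all features, FAD against WT called 0 regions with TMM and 2 with library totals as scaling, both at Myh6, and 0 to 119 with each ChIP library left out in turn. Over genes it called 0 with TMM, 1 with DESeq2, 2 with library totals, 1 with overlapping regions only, 13 without the regions called in FAD ChIP 2 alone, and 0 to 31 with a library left out. FAD-BIX against FAD called 0 regions with TMM, 4 with library totals, 17 with no filter on low counts and 12 to 26 with a library left out. Over genes it called 0 with TMM, 3 with library totals, 10 with no filter, 6 without the regions called in FAD ChIP 2 alone and 0 to 22 with a library left out. DESeq2 called 0 regions in both comparisons, while 55 stood higher and 675 stood lower with an unadjusted p under 0.05 in FAD against WT and 525 stood higher and 87 lower in FAD-BIX against FAD. limma on ChIP over input called 0 regions, with 1385 higher and 280 lower, and 394 higher and 689 lower. Where a group was left with 1 library, that library was assumed to vary like those of the other group. The cause of these changes was not tested.

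With the replicate number as a block (replicate block) 0 regions were called in both comparisons, 4 genes in FAD against WT and 7 in FAD-BIX against FAD, none of them among the 8. The numbers did not pair the mice, since the correlation of deviations of same-numbered mice was 0.0569 in FAD against WT and -0.0398 in FAD-BIX against FAD. The block turned Magi2 in FAD-BIX against FAD to 0.0078.

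Several folds turned sign with the setting, none past the threshold, Macrod2 and Lrp1b in FAD against WT among them. In FAD against WT, library totals gave log2 folds of 0.35 for Rbfox1, 0.49 for Csmd1, 0.44 for Csmd3, 0.23 for Lrp1b, 0.076 for Macrod2, 0.59 for Ptprd and 0.37 for Magi2. Limma on ChIP over input gave 0.50 for Rbfox1, 0.59 for Csmd1, 0.47 for Csmd3, 0.15 for Lrp1b, 0.28 for Macrod2, 0.12 for Ptprd and 0.49 for Magi2. Without the regions called in FAD ChIP 2 alone, Rbfox1 was 0.15, Csmd3 0.12 and Ptprd 0.12, and Auts2 could not be tested. With overlapping regions only, Rbfox1 was 0.041. Leaving out a library gave -0.73 to 0.31 for Rbfox1, -0.34 to 0.057 for Csmd3 and -0.31 to 0.080 for Ptprd. In FAD-BIX against FAD, library totals gave -0.084 for Csmd3 and -0.24 for Auts2, limma gave -0.45 for Auts2, and DESeq2 and its size factors gave 0.0080 and 0.0065 for Magi2. Leaving out a library gave -0.45 to 0.41 for Rbfox1, -0.014 to 0.36 for Csmd3, -0.18 to 0.19 for Magi2, -0.16 to 0.29 for Auts2 and 0.32 to 0.68 for Macrod2.

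Pooled over the 8 genes, the FAD versus WT table held 20.6 regions per Mb, 17.6 with overlapping regions only, 10.4 without those called in FAD ChIP 2 alone and 0.909 with those called in at least 2 libraries. The FAD-BIX versus FAD table held 29.6, 25.9, 20.3 and 1.98. With a median of 11 to 20 ChIP reads per region, small differences could be missed in single regions. The size of difference that the tests could find, in regions or in genes, is not given here.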
